A study of Rattus norvegicus with 10 samples.

Results

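Complex I, NADH:ubiquinone oxidoreductase, was described here through 42 nuclear genes measured in axons of adult and embryonic rat sensory neurons. They are the genes whose symbol begins with Nduf followed by a, b, c, s or v and that have a probe set assigned to that symbol alone, out of 14217 genes with such a probe set. By textbook class, 6 encode core subunits, 28 encode accessory subunits and 6 encode assembly factors. The other 2, Ndufa4 and Ndufa4l2, carry the name but belong elsewhere, since the Ndufa4 protein is now counted with cytochrome c oxidase and Ndufa4l2 is a relative of it. The accessory subunits Ndufs5 and Ndufa10 and the core subunits encoded by mitochondrial DNA were not analysed here.

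The arrays held RNA of axons from dorsal root ganglia, 5 from adult rats and 5 from embryos at day E16, labelled as separate biological replicates. Per the labels' protocols, both stages were explants grown for 4 days in compartmented chambers, and axons over 1 cm long were collected from the outer compartment. The labels give no strain, no adult age and no genotype, and whether animals were pooled is not stated there either. Axons in culture have regrown after dissection in both stages, so neither stage is an axon taken directly from a nerve.

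Complex I is the entry point of the respiratory chain. Its matrix arm takes electrons from NADH through flavin and iron-sulfur clusters to ubiquinone, and its membrane arm pumps protons. Core subunits, conserved from bacteria, do the catalysis, accessory subunits surround and stabilise them, and assembly factors help to build the enzyme without staying in it. Axons rely on mitochondria far from the cell body, and mRNAs for mitochondrial proteins are among those carried into axons.

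No member passed the threshold between stages. Of the 42 genes, 0 had an adjusted p under 0.05 by limma over all probe sets, where 1.26% of all genes did. Estimates nevertheless lay below 0, lower in adult axons, for 38 of 42 members (90.5%), against 50.1% of all genes and 53.6% of genes whose mean lay above the background level. At an unadjusted p under 0.05, 16 members (38.1%) were lower and 0 higher, against 7.01% of all genes that were lower and 10.6% of those with a mean above background. The median log2 change, adult minus embryonic, was -1.03 over the members and -0.00 over all genes. For single members, the 95% confidence interval reached between 0.50 and 2.24 to each side of the estimate, with a median of 1.22, more than the size of that median change. The count of 16 ranged from 9 to 29 when 1 array was left out. It was 9 without adult replicate 2, 10 without adult replicate 1 or embryonic replicate 3, and 29 without adult replicate 5. Omission of a single array brought calls in 2 cases, with 3 members without adult replicate 5 and 1 without embryonic replicate 4. The count also depended on normalization, with 3 members called after quantile normalization, 2 after cyclic loess and 0 after median scaling.

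**Figure D1:**
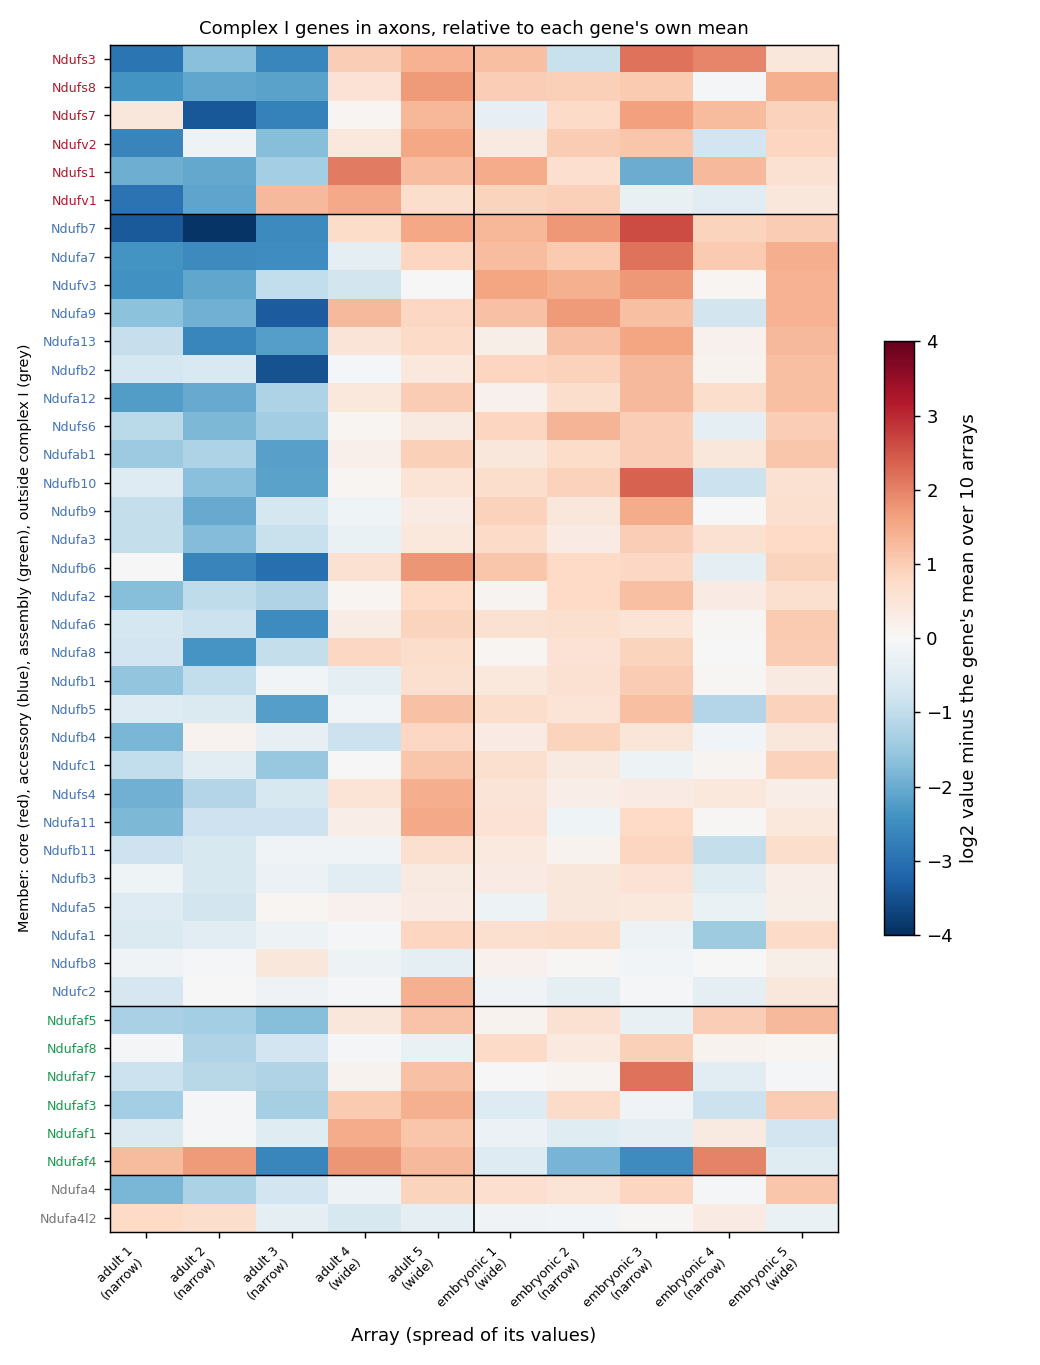
Each row is a member and each column an array, adult on the left and embryonic on the right, and colour gives the log2 value minus that gene's mean over the 10 arrays. Adult arrays 1 to 3 are low (blue) for most subunits, while adult arrays 4 and 5 resemble the embryonic arrays. Ndufaf4 has high and low arrays in both stages.

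The members did not behave alike over the 5 adult arrays. The median log2 value of the 42 genes was 5.87, 5.22, 5.36, 7.44 and 7.88 on adult arrays 1 to 5, and 7.47, 7.77, 8.07, 7.07 and 7.86 on embryonic arrays 1 to 5. Adult arrays 1 to 3 were thus below every embryonic array, and adult arrays 4 and 5 lay within the embryonic range. The same 3 adult arrays differ from the other 2 in a property of the whole array, the spread of its values. The standard deviation over all probe sets was 1.52 to 1.65 on adult arrays 1 to 3 and 2.06 to 2.09 on adult arrays 4 and 5. It was 1.68 to 1.71 on embryonic arrays 2 to 4 and 1.96 to 1.97 on embryonic arrays 1 and 5. No array lay between 1.71 and 1.96. The 6 arrays under this gap are called narrow and the 4 above it wide, and stage changes are also given within each set.

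Among the 6 narrow arrays, 3 adult and 3 embryonic, the median change of the members was -1.78. All adult values lay below all embryonic values for 25 of 42 members (59.5%), against 11.2% of all genes. Among genes with a mean above the background level this share was 16.2%. Among the 4 wide arrays, 2 of each stage, the median was -0.17. There 10 of 42 members were wholly lower in adult, near the 24.8% of all genes, and 5 were wholly higher. Of all 14217 genes, 3799 were wholly higher. Of the 8005 genes with a mean above the background level, 1793 were wholly lower and 2628 wholly higher. For all genes the median changes on narrow and wide arrays were -0.05 and 0.02. For genes with a mean above the background level they were -0.27 and 0.23. In a limma fit with stage, spread and their interaction, the change on wide arrays exceeded that on narrow arrays for 39 of 42 members. For 0 of them did this difference pass the adjusted threshold, which 25 of all 31042 probe sets passed, and 16 had an unadjusted p under 0.05, all above 0, against 9.4% of all genes above 0. Limma on the narrow arrays alone called 4 members lower and 0 higher, with 1.18% of all genes called. These were Ndufb7 (-5.02 ± 0.56, SE; adjusted p = 0.023), Ndufa7 (-3.90 ± 0.39; adjusted p = 0.017), the core subunit Ndufs8 (-2.83 ± 0.39; adjusted p = 0.040) and Ndufa12 (-2.72 ± 0.38; adjusted p = 0.042). On the 3 narrow adult arrays, Ndufb7 was below or at the background level and Ndufs8 near it, so the sizes of their changes are not exact. On the wide arrays alone 0 members were called by limma, 3 had an unadjusted p under 0.05 as lower and 2 as higher. That fit, with 2 arrays of each stage, called 0 of all 31042 probe sets, so its count says nothing of the members.

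**Figure D2:**
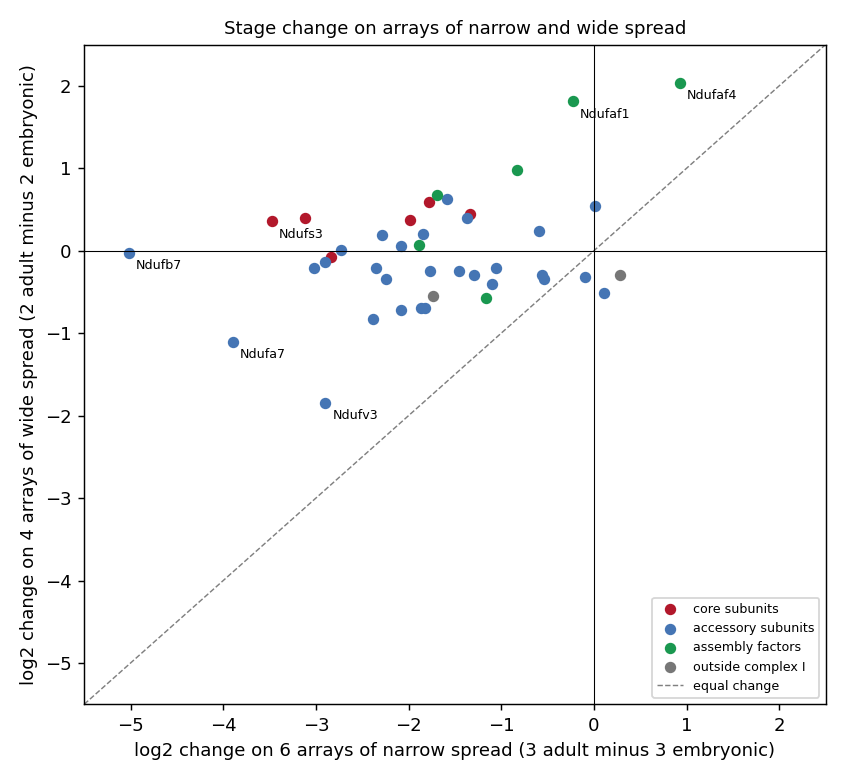
Each point is a member, with its log2 change (adult minus embryonic) on the 6 narrow arrays on the horizontal axis and on the 4 wide arrays on the vertical axis. Points above the dashed line have a less negative or more positive estimate on wide arrays. Ndufb7 lies at -5.02, with narrow adult values below or at the background level, and at -0.02, and Ndufv3, at -2.90 and -1.85, is lower on both.

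Other properties of the arrays and samples moved with stage or with spread. An array's background level is used here as the 95th percentile of 91 probe sets for 81 genes restricted to other tissues. It was 3.94 to 4.13 on the narrow and 2.97 to 3.12 on the wide adult arrays, and 3.23 to 4.02 on embryonic arrays. Control transcripts with a poly-A tail, which are added before labelling, averaged 11.27 to 11.97 on the narrow and 7.64 to 10.60 on the wide adult arrays. On embryonic arrays they averaged 2.11 to 2.73. The labelling reaction cannot be told apart from stage, and these controls also differed with spread among the adult arrays. The 3' minus 5' difference of the Gapdh control, a sign of RNA integrity, overlapped between stages, at 3.47 to 5.80 on adult and 3.62 to 5.46 on embryonic arrays. By spread, it was 5.46 and 5.10 on the wide and 3.62 to 4.36 on the narrow embryonic arrays. Among adult arrays it was 3.81 to 5.80 on the wide and 3.47 to 4.48 on the narrow ones, which overlap. Of 15 sensory neuron markers, 4 fell in adult axons (Prph, Nefm, Nefl and Tubb3) and 0 rose, with a mean level of 5.11 to 6.68 on adult and 6.27 to 8.54 on embryonic arrays. The sodium channel Scn9a was above background on 0 adult and 2 embryonic arrays, and the sodium channel Scn10a on 5 adult and 5 embryonic arrays. Of 14 macrophage markers, 8 rose and 0 fell, with a mean level of 6.89 to 8.46 on adult and 3.24 to 5.95 on embryonic arrays. None of 8 fibroblast markers passed by limma, and at an unadjusted p under 0.05 there were 2 higher and 1 lower. Their mean level was 6.67 to 6.92 on the wide adult arrays, 3.04 to 5.21 on the narrow adult arrays and 3.61 to 5.10 on embryonic arrays. The 6 satellite glia markers averaged 6.73 to 7.10, 4.71 to 5.97 and 4.74 to 6.21 on the same 3 sets of arrays, and 0 of them passed by limma, with 1 higher at an unadjusted p under 0.05. Of 7 blood cell markers, 1 fell and 0 rose, with 4 lower at an unadjusted p under 0.05. Their mean level was 2.33 to 3.72 on adult and 3.99 to 5.11 on embryonic arrays, without overlap. Of 9 Schwann cell markers, 0 passed by limma and 2 were higher at an unadjusted p under 0.05, with a mean level of 4.77 to 6.34 on adult and 4.39 to 4.93 on embryonic arrays. The part of labelling, RNA integrity, macrophages, fibroblasts, satellite glia, blood cells, Schwann cells and array spread in the complex I values was not tested. Fewer axons, or axons with less of a transcript each, cannot be told apart in such bulk RNA.

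Detection followed the same division of the adult arrays, among all genes as among the members. Of all genes, 43.3%, 38.6%, 34.8%, 65.8% and 65.6% were above the background level on adult arrays 1 to 5, and 61.6%, 52.2%, 41.4%, 40.8% and 56.9% on embryonic arrays 1 to 5. The number of members above the background level was 32, 32, 29, 41 and 40 on adult arrays 1 to 5 and 40, 39, 37, 38 and 40 on embryonic arrays 1 to 5. On all 5 arrays of a stage, 26 members were above background in adult and 36 in embryonic axons, and all 26 were among the 36. Over all 14217 genes these counts were 3091 in adult and 3973 in embryonic axons. Accessory subunits made up most of them, with 23 of 28 above background on all 10 arrays. Only 1 of 6 core subunits, Ndufv2, was above background on every adult array, against 5 of 6 on every embryonic array. Ndufa4l2 was above background on none of the 10 arrays.

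Core subunits had a median change of -1.38, with -2.41 on narrow and 0.39 on wide arrays. All 6 estimates were below 0, 1 had an unadjusted p under 0.05 and 0 were called. The median of the 6 genes was 3.87, 3.97, 4.30, 7.14 and 7.36 on adult arrays 1 to 5 and 7.27, 7.10, 7.15, 6.56 and 7.05 on embryonic arrays 1 to 5. On adult arrays 1 and 2 the core median was therefore at or below the background level, while adult array 4 lay within the embryonic range and adult array 5 just above it.

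**Figure D3:**
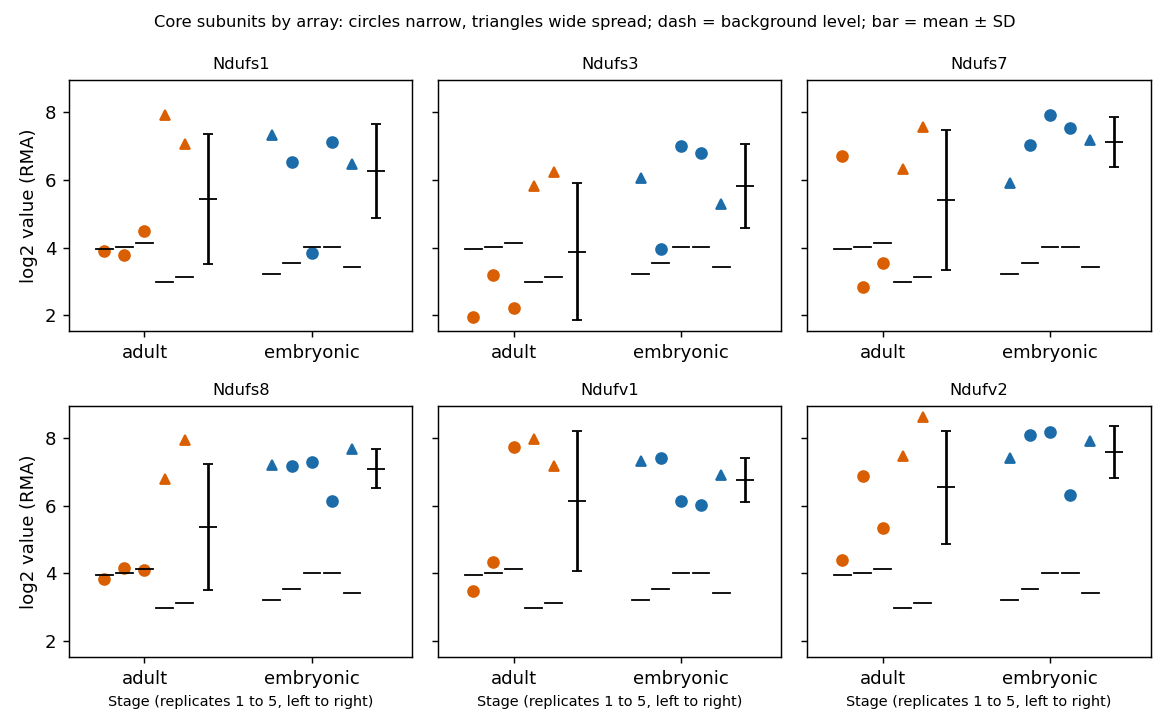
Log2 values of the 6 core subunits on each array, with adult arrays on the left of each panel, embryonic arrays on the right, black dashes for each array's background level and bars for mean ± SD (n = 5). Ndufs8 and Ndufs3 sit near or below background on adult arrays 1 to 3 and at 5.83 or more on adult arrays 4 and 5.

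The Q module subunits carry electrons to ubiquinone. Ndufs3, a scaffold-like subunit of this module, was at 1.93, 3.17, 2.23, 5.83 and 6.23 on adult arrays 1 to 5 and at 6.05, 3.95, 7.01, 6.80 and 5.29 on embryonic arrays 1 to 5. Adult arrays 1 to 3 lay below all embryonic ones and under the background level, and the change was -1.94 ± 0.93 (SE; adjusted p = 0.55). Ndufs7 holds the last iron-sulfur cluster before ubiquinone. Its values were 6.70, 2.85, 3.54, 6.33 and 7.57 on adult and 5.92, 7.03, 7.90, 7.52 and 7.18 on embryonic arrays. The groups overlapped because of adult arrays 1, 4 and 5, and the change was -1.71 ± 0.87 (SE; adjusted p = 0.58), or -1.08 without adult replicate 2. Ndufs8, which binds another pair of iron-sulfur clusters, was at 3.85, 4.16, 4.10, 6.80 and 7.93 on adult and 7.21, 7.17, 7.29, 6.15 and 7.66 on embryonic arrays. Here adult arrays 1 to 3 were below all embryonic arrays and adult arrays 4 and 5 among them, with a change of -1.73 ± 0.77 (SE; adjusted p = 0.50) over all arrays.

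The N module takes up the electrons. Ndufv1, which binds NADH and the flavin, was at 3.49, 4.34, 7.75, 7.97 and 7.16 on adult and 7.33, 7.40, 6.15, 6.03 and 6.91 on embryonic arrays. Only adult arrays 1 and 2 were below the embryonic range, and the change was -0.62 ± 0.86 (SE; adjusted p = 0.92). Without single adult arrays it was 0.04 (replicate 1), -0.17 (replicate 2), -1.02 (replicate 3) or -1.08 (replicate 4). Its partner Ndufv2 was at 4.41, 6.87, 5.36, 7.47 and 8.62 on adult and 7.42, 8.08, 8.18, 6.31 and 7.92 on embryonic arrays, where only adult arrays 1 and 3 lay below the embryonic range (-1.04 ± 0.73, SE; adjusted p = 0.76). Without adult replicate 1 its change was -0.50. Ndufs1, the large iron-sulfur protein of the module, was at 3.89, 3.78, 4.49, 7.90 and 7.06 on adult and 7.32, 6.52, 3.85, 7.12 and 6.46 on embryonic arrays. One embryonic array, replicate 3, was as low as adult arrays 1 to 3, and the change was -0.83 ± 0.93 (SE; adjusted p = 0.89). It was -1.43 without that array, -1.45 without adult replicate 4, -0.45 without adult replicate 1 and -0.42 without adult replicate 2.

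Accessory subunits had a median change of -1.19, -1.83 on narrow and -0.24 on wide arrays. Of the 28, 27 estimates were below 0, 13 had an unadjusted p under 0.05 as lower, 0 were called and 2 did not overlap between stages, where 1.86% of all genes were wholly lower in adult. Those 2 were Ndufv3 and Ndufa7, and the third member without overlap was the assembly factor Ndufaf8.

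Ndufv3, a small subunit at the NADH-oxidising tip, came closest to the threshold. It was at 4.58, 4.93, 6.03, 6.28 and 7.04 on adult and 8.59, 8.42, 8.75, 7.08 and 8.42 on embryonic arrays. Every adult array was below every embryonic array, though adult replicate 5 and embryonic replicate 4 differed by little. The change was -2.48 ± 0.50 (SE; 95% interval -3.58 to -1.38; adjusted p = 0.052). It passed in 7 alternative analyses and not in the other ones run, with an adjusted p between 0.024 and 0.98 over all of them. Its second probe set was above background on 3 of 10 arrays and had an estimate of -0.08 (adjusted p = 0.98), and the larger value rests on a probe set whose sequence is shared by several transcripts of the gene.

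Ndufa7, a subunit of the matrix arm, was at 5.38, 5.23, 5.30, 7.38 and 8.64 on adult and 9.01, 8.83, 9.96, 8.81 and 9.23 on embryonic arrays. The stages did not overlap, and adult arrays 1 to 3 were at a common low level. The change was -2.78 ± 0.65 (SE; adjusted p = 0.092). Its other probe set, above background on 3 of 10 arrays, had an estimate of -0.87 (adjusted p = 0.84). Ndufb7, on the outer face of the distal membrane arm, had the most negative estimate, -3.02 ± 1.01 (SE; adjusted p = 0.28). It was at 3.32, 2.74, 4.14, 7.40 and 8.23 on adult and 8.0, 8.40, 9.29, 7.57 and 7.69 on embryonic arrays. Adult arrays 1 to 3 were at or near the background level, adult array 4 was just under the embryonic range and adult array 5 within it.

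Another 3 accessory subunits had the next most negative estimates. Ndufa9, which holds a bound NADPH, was at 5.36, 5.07, 3.69, 8.30 and 7.83 on adult and 8.16, 8.71, 8.21, 6.27 and 8.38 on embryonic arrays (-1.90 ± 0.86, SE; adjusted p = 0.51). Ndufa13, also known as Grim19, was at 5.84, 4.15, 4.55, 7.28 and 7.54 on adult and 7.01, 7.95, 8.35, 6.94 and 8.07 on embryonic arrays (-1.79 ± 0.67, SE; adjusted p = 0.36). Ndufb2 of the membrane arm was at 8.03, 8.15, 5.26, 8.70 and 9.17 on adult and 9.59, 9.67, 10.03, 8.90 and 9.94 on embryonic arrays (-1.76 ± 0.64, SE; adjusted p = 0.34). The stages overlapped through adult arrays 4 and 5 in Ndufa9 and Ndufa13, and through adult array 5 alone in Ndufb2. Another probe set of Ndufa9, above background on 0 of 10 arrays, had an estimate of -0.20 (limma adjusted p = 0.96).

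The remaining accessory subunits ranged in change from -1.63 for Ndufa12 to 0.22 for Ndufc2, the only one with an estimate above 0. Of the genes described next, Ndufs4, Ndufa1, Ndufb3 and Ndufb8 were chosen after their values were seen. Ndufs4, a subunit whose loss in mice models Leigh syndrome, was tight in embryonic axons at 6.72 ± 0.11 and scattered in adult axons at 6.02 ± 1.36 (SD, n = 5 each). Its change was -0.70 ± 0.56 (SE; adjusted p = 0.80), with -1.58 on narrow and 0.62 on wide arrays. Estimates closer to 0 were found for Ndufa1 and Ndufb3. Ndufa1, a small membrane subunit encoded on the X chromosome, was at 10.53 ± 0.56 in adult and 10.72 ± 0.94 in embryonic axons, and Ndufb3 at 9.66 ± 0.38 in adult and 10.12 ± 0.41 in embryonic axons. The 95% intervals of their changes, -1.20 to 0.83 and -1.08 to 0.17, still reach below a log2 change of -1. Ndufc2 was at 7.64, 8.32, 8.10, 8.26 and 9.74 on adult and 8.17, 7.91, 8.21, 7.92 and 8.74 on embryonic arrays (adjusted p = 0.94). Ndufb8 was above background on 1 adult and 2 embryonic arrays, so most of its values are bounds.

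**Figure D4:**
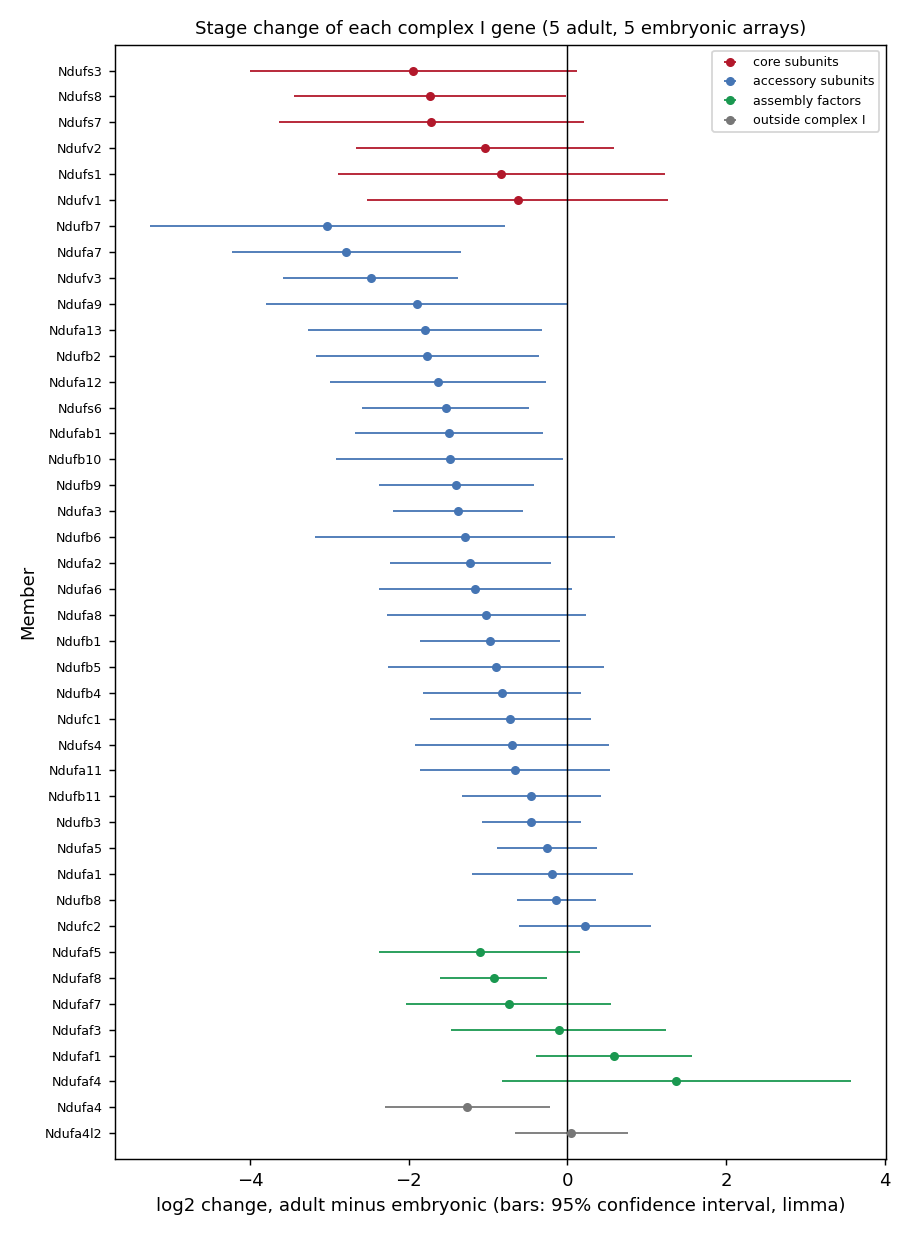
Log2 change, adult minus embryonic, of each member over 5 adult and 5 embryonic arrays, with 95% confidence intervals from limma, grouped by class. Of the 42 estimates 38 are below 0, and 0 of 42 members passed the adjusted threshold.

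By position in the enzyme, the median change was -1.72 over 4 Q module subunits, -1.19 over 10 N module subunits, -0.97 over 11 subunits of the distal membrane arm and -0.72 over 7 of the proximal membrane arm. On narrow arrays these medians were -2.98, -2.03, -1.45 and -1.37, and on wide arrays 0.30, 0.04, -0.34 and -0.13. Differences between the modules, and between core and accessory subunits, were not tested.

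Promoter sequences of RefSeq (build GRCr8, 250 bases before to 50 after the gene start) were available for 40 of the 42 members, the exceptions being Ndufa8 and Ndufb9. They were searched on both strands for motifs of factors known to act on nuclear genes of the respiratory chain. The nuclear respiratory factor Nrf1 motif GCGCANGCG was in 25.0% of member promoters, against 5.80% of all 33469 promoters and 10.7% of those of 13192 genes on the array. The ETS motif CCGGAAG, bound by Gabpa, was in 22.5%, against 8.75% and 14.2%. The YY1 motif AANATGGC was in 18 of 40, against 6.96% and 8.49%. At least 1 of the 3 was in 28 of 40 member promoters (70.0%), against 18.8% and 28.1%. Some YY1 matches began after the gene start, as in Ndufa2, Ndufa3 and Ndufa7, and others before it, as in Ndufs8. The YY1 motif holds the letters ATG of a start codon, and matches at a start codon were not told apart from others. A match describes letters only, and binding was not measured. The 4 sequences below belong to the member nearest the threshold, to the 2 accessory subunits with the most negative estimates and to the core subunit called on narrow arrays. Each runs 5′ to 3′ along its gene's strand, with capitals marking matches to the motifs. They lie at chr20:9613536-9613835 (plus strand) for Ndufv3, chr7:15311196-15311495 (plus) for Ndufa7, chr19:41477242-41477541 (minus) for Ndufb7 and chr1:210573649-210573948 (minus) for Ndufs8. Ndufv3 holds an Nrf1 match, Ndufa7 a YY1 match, Ndufb7 an ETS match, and Ndufs8 a YY1 and an ETS match.
Ndufv3: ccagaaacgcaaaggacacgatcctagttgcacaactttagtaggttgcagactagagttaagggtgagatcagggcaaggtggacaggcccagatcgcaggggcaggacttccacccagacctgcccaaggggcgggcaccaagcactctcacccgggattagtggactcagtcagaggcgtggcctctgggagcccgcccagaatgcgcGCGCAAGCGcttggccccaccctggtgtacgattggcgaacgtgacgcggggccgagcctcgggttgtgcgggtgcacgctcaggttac
Ndufa7: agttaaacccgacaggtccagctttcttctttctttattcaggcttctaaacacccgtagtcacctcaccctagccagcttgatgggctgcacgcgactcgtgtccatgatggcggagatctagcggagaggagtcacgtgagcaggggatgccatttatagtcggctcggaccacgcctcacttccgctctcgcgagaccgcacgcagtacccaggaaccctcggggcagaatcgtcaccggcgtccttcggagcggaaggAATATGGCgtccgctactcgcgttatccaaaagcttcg
Ndufb7: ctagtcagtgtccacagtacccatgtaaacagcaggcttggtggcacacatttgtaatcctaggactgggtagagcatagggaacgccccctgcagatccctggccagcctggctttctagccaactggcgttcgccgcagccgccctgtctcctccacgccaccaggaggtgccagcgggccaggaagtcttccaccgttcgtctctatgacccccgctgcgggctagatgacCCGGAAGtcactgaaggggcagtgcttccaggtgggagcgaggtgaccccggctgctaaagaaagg
Ndufs8: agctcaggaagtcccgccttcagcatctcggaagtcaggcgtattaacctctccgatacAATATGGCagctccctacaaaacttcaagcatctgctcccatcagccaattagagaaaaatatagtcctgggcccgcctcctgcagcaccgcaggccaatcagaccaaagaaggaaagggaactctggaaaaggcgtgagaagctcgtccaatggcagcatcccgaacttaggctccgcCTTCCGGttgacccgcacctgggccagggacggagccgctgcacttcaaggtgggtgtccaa

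Assembly factors had a median change of -0.42, between -0.16 (without adult replicate 3) and -0.73 (without adult replicate 5) when 1 array was left out, and -1.0 on narrow and 0.83 on wide arrays. Of 6 estimates 4 were below 0 and 2 above, and 0 were called. Their per-array median was 4.17, 4.81, 3.60, 6.25 and 6.41 on adult arrays 1 to 5 and 5.06, 5.04, 5.29, 5.47 and 5.83 on embryonic arrays 1 to 5. The wide adult arrays were above all embryonic arrays and the narrow ones below them.

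Ndufaf8 and Ndufaf5 act together, Ndufaf5 hydroxylating an arginine of Ndufs7 and Ndufaf8 stabilising Ndufaf5. Ndufaf8 was at 6.45, 5.29, 5.72, 6.44 and 6.24 on adult and 7.27, 6.89, 7.44, 6.63 and 6.56 on embryonic arrays. It had no overlap between stages and a small spread, and an estimate of -0.93 ± 0.31 (SE; adjusted p = 0.27). Ndufaf5 was at 4.54, 4.48, 4.12, 6.29 and 6.97 on adult and 5.99, 6.44, 5.54, 6.83 and 7.14 on embryonic arrays (-1.11 ± 0.58, SE; adjusted p = 0.60), low on adult arrays 1 to 3 as the subunits were. Ndufaf7, a methyltransferase, was at 3.16, 2.92, 2.83, 4.18 and 5.21 on adult and 4.05, 4.15, 6.21, 3.62 and 3.97 on embryonic arrays. It was above background on 2 adult and 4 embryonic arrays (-0.74 ± 0.59, SE; adjusted p = 0.80). Its change was -0.29 without embryonic replicate 3, the array with the highest value, and -1.13 without adult replicate 5. Another probe set of Ndufaf7, above background on 4 of 10 arrays, had an estimate of -0.34 (limma adjusted p = 0.95).

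Ndufaf3 and Ndufaf4 bind each other early in assembly. Their changes were -0.83 and 0.93 on narrow arrays and 0.98 and 2.04 on wide arrays, and the difference between them was not tested. Ndufaf3 was at 3.81, 5.13, 3.85, 6.22 and 6.59 on adult and 4.67, 5.93, 5.04, 4.32 and 6.18 on embryonic arrays (-0.11 ± 0.61, SE; adjusted p = 0.99). Ndufaf4 had the highest estimate of the members, 1.37 ± 1.00 (SE; adjusted p = 0.77). It was at 7.24, 7.66, 3.35, 7.75 and 7.27 on adult and 5.45, 4.10, 3.44, 7.94 and 5.48 on embryonic arrays, so that one adult array was low and one embryonic array high. The estimate was 2.20 without adult replicate 3 and 0.91 without embryonic replicate 3. Ndufaf1, which binds early membrane arm intermediates, was below background on all 5 embryonic arrays and above it on adult arrays 4 and 5 (4.42 and 4.05). Its values were 2.33, 2.86 and 2.42 on the other adult arrays and 2.69, 2.44, 2.56, 3.29 and 2.15 on embryonic arrays (adjusted p = 0.78), and no fold is given because the adult mean also lay below the background level.

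Ndufa4, the cytochrome c oxidase protein, had an estimate of -1.26 ± 0.47 (SE; adjusted p = 0.36). Its values were 6.04, 6.59, 7.08, 7.65 and 8.75 on adult and 8.52, 8.41, 8.72, 7.79 and 8.97 on embryonic arrays, with adult arrays 1 to 4 below the embryonic range. Ndufa4l2, known as a gene induced by low oxygen, was at 2.15 to 3.57 on adult and 2.52 to 3.10 on embryonic arrays (adjusted p = 0.99).

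Genes related to complex I were set beside it. Of 10 assembly factors with other names, 0 passed by limma and 0 had an unadjusted p under 0.05, 7 estimates were above 0, and the median change was 0.33, with 0.32 on narrow and 0.39 on wide arrays. Of 34 subunits of complexes II to V, 30 had an estimate below 0. At an unadjusted p under 0.05 by limma, 17 of the 34 (50%) were lower and 0 higher, against 7.01% of all genes that were lower. Past the adjusted threshold 1 of the 34 fell and 0 rose, where 1.26% of all genes were called. The subunit that fell was Cox6b1, of cytochrome c oxidase, at 8.70 ± 0.60 in adult and 10.68 ± 0.63 in embryonic axons (SD, n = 5 each; limma adjusted p = 0.043). Their median change was -1.18, with -1.96 on narrow and -0.23 on wide arrays. Their mean level was 6.59 to 7.02 on the narrow and 8.52 to 8.95 on the wide adult arrays, and 8.37 to 8.97 on embryonic arrays. Of 19 genes of mitochondrial mass and biogenesis, 0 passed by limma, and at an unadjusted p under 0.05 there were 2 lower and 1 higher. Their median change was -0.41, with -0.81 on narrow and 0.42 on wide arrays.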

How the data were processed

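RNA of adult and embryonic axons was measured on 10 arrays. The deposited table holds log2 values, with the base judged from their range. Per the submitters' processing notes, the authors used RMA (robust multi-array averaging). No version, option or joint treatment of the arrays is stated there. Array distributions differ in the deposited table, which has no detection calls. RMA compresses changes of weak probe sets, and the number of arrays limits the precision.

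Of 31099 probe sets, 57 are controls and 20826 carry 1 gene symbol. Each gene was represented by its probe set with the highest mean, and 4 members had several. Stage changes came from limma 3.58.1 run in R 4.3.3 (two-sided, Benjamini-Hochberg over 31042 probe sets, threshold 0.05). The fit was tried on simulated data with independent noise for each probe set. Those data held no effect shared across an array, so they do not cover the array spread seen here. Figures used Python 3.11.15 and matplotlib 3.10.9. The members, gene lists and tests were chosen with earlier results of these data known. Named members are the core subunits, the assembly factors, members without overlap, the 6 most negative and 4 most positive estimates, Ndufa4 and Ndufa4l2; any other gene was picked with its values known. The interaction of stage and array spread was added after seeing the data. All 42 members matched a gene number in a newer rat gene table. Alternatives covered scaling, filters, variance models, array weights, probe set choice, pairing, array spread, the background level and omission of each array.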

Additional observations from a re-analysis of the deposited data

Results flagged for a closer look

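Within a stage, a single array stood apart from the other 4 by more than Dixon's 95% limit in 5 of 40 sets of values (20 named members in 2 stages), and chance gives about 1 in 20. Embryonic replicate 4 was low for Ndufa9 (6.27) and Ndufv3 (7.08), and embryonic replicate 3 was low for Ndufs1 (3.85) and high for Ndufaf7 (6.21). Adult replicate 3 was low for Ndufaf4 (3.35).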

How the results depend on the processing

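The count of members past the threshold, 0 over all arrays, was 3 after quantile normalization, 2 after cyclic loess, 2 with a filter on weak probe sets, 1 with array weights, 2 with array spread as a block and 4 on narrow arrays, and between 0 and 3 when 1 array was left out. All of these calls were lower in adult. It stayed at 0 with median scaling, a trend and robust variance model, the replicate block and wide arrays alone. Replicate numbers do not pair the samples (same-numbered arrays correlated between -0.12 and 0.28), and the replicate block gave 0 members called, a lowest adjusted p of 0.12 and 191 probe sets called against 258 without it. On wide arrays the median change was 0.386 for core subunits, -0.244 for accessory subunits and 0.829 for assembly factors. On wide arrays the sign also turned for Ndufs1 (0.593), Ndufs3 (0.357), Ndufs7 (0.398), Ndufv1 (0.445), Ndufv2 (0.375), Ndufaf3 (0.976), Ndufaf5 (0.069) and Ndufaf7 (0.682). Ndufaf3 was at 0.066 after cyclic loess. Differences of Ndufa4l2 (-0.292 on wide arrays, -0.138 to 0.216 when 1 array was left out) and of Ndufaf1 on narrow arrays (-0.225) were computed from values below the background level throughout, so neither their size nor their sign can be read as a change. Leaving out 1 array gave -1.08 to 0.042 for Ndufv1, -0.477 to 0.219 for Ndufaf3 and -0.111 to 0.412 for Ndufc2. The cause of these shifts was not tested. Of the other values for named members, 402 kept their sign and their side of the threshold and 15 newly passed it. Values near or below an array's background level limit what can be said of core subunits and Ndufb7 on adult arrays 1 to 3.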
